A study of Mus musculus with 25 samples.

Results

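The SMAD family and the BMP and TGF-β receptors were followed across sorted mouse cortical neurons. The members were chosen by gene symbol, as *Smad1*, *Smad2*, *Smad3*, *Smad4*, *Smad5*, *Smad7*, *Bmpr1a*, *Bmpr2*, *Tgfbr1* and *Tgfbr2*. Of these 10 names, 9 matched a row among the 9931 genes with a symbol, and *Bmpr1a* was not analysed here. All mice were young adults of both sexes, labelled C57BL/6 and homozygous for a conditional *Rest* allele (REST flx/flx) and for a reporter that turns on TdTomato after Cre (STOP flx/flx TdTomato). AAV with the human synapsin promoter, which is active in neurons, was given into the sensorimotor cortex. AAV-Syn-GFP gave the WT groups, which keep both floxed alleles intact and were sorted by GFP, and AAV-Syn-Cre gave the REST cKO groups, sorted by TdTomato. A complete thoracic crush of the spinal cord (SCI) or a sham operation followed. The 25 libraries, of about 1000 sorted cells each, were WT sham (n = 4), WT at days 1, 3 and 7 after SCI (n = 3 each), and the REST cKO counterparts of sham (n = 3), day 1 (n = 2), day 3 (n = 4) and day 7 (n = 3). Because the sorting colour and the virus differed with the genotype, their effects cannot be told apart.

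BMP and TGF-β ligands bind pairs of type I and type II receptor kinases. The type I receptor then phosphorylates receptor-regulated SMADs, SMAD1 and SMAD5 for BMPs and SMAD2 and SMAD3 for TGF-β, which join SMAD4 and enter the nucleus, while SMAD7 blocks the receptor as negative feedback. SMAD1 is known as a regeneration-associated transcription factor of peripheral sensory neurons. REST is a repressor that binds the RE1 element and silences neuronal genes in other tissues, and the genotype comparison asks how its loss alters the response of these neurons to injury.

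*Smad1* lies on chromosome 8 (79338395 to 79399518, minus strand) and *Smad5* on chromosome 13 (56703010 to 56742377, plus strand) of GRCm38. The bases just upstream of these 2 BMP-responsive SMAD genes are shown because *Smad1* had the widest genotype difference of the members and *Smad5* was the only one of the 6 members searched whose promoter window held a part of the RE1 element. They are chr8:79399519-79399678 on the minus strand and chr13:56702760-56703009 on the plus strand, from RefSeq on GRCm38.p6, written 5′ to 3′. Capitals mark GGACAGC, the right part of RE1.
Smad1: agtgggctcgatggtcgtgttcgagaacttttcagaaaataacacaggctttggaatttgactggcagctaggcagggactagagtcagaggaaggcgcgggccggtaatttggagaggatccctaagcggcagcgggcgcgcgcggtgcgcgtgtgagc
Smad5: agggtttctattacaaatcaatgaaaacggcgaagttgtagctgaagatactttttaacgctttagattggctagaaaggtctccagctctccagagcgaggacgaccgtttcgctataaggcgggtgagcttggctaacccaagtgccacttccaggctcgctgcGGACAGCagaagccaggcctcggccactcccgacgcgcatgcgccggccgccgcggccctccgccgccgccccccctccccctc

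Promoter windows of 250 bases before to 50 after the start were searched on both strands, 9 windows in all for 6 members. GGACAGC was in 2 windows, both of *Smad5*, which overlap and hold the same single match, against 6.56% of 32851 mouse promoter windows. TTCAGCACC, the left part of RE1, was in 0 of the 9 windows (0.371% of all windows). The palindromic SMAD element GTCTAGAC was in 0 (0.213% of all). The GC-rich element GGCGCC, bound by BMP-responsive SMADs, was in 4 windows, of *Bmpr2*, *Smad5* and *Tgfbr1* (11.9% of all). Of these 4, 2 were the same overlapping windows of *Smad5*, which share a match. These matches are of letters, and no binding was measured in these neurons.

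The values were log2 normalized counts (base 2 by the study's figure legend) that are not divided by transcript length, so levels were compared between groups and not between genes. Read totals are missing from these values. The paper gives an average depth for the cortical libraries, and that of each single library is unknown. Values under -2 made up 2.77% to 29.5% of a library. *Rest* itself lay between -2.65 and -0.52 in REST cKO sham and between -1.55 and -0.26 in WT sham, which overlap. The genotypes also overlapped at day 1 (-1.35 to 0.71 in WT, -0.43 and -0.40 in REST cKO). They did not at day 3 (0.56 to 2.88 in WT, -1.61 to -0.04 in REST cKO) or day 7 (0.26, 2.30 and 2.74 in WT, -1.21, -0.33 and -0.97 in REST cKO). These *Rest* values correlate with the sequencing components described next and were not changed, so they are a limited check of the labels. Whether its 3′ reads fall in the floxed part is not given in the sources used here. All 10 microglial markers were measured, and their mean ranged from 2.56 to 3.37 between libraries, with every marker above 1.51 in every library. The mean of the 8 neuronal markers ranged from 0.30 to 2.58, and that of the 5 excitatory markers from 0.02 to 2.12. Of 4 markers of layer 5 projection neurons only *Bcl11b* was measured, from -1.01 to 2.23. The libraries labelled as cortical motor neurons thus also carried microglial transcripts in every library. Markers of other cells were measured too, with means of 1.36 to 2.91 for the 7 endothelial, 0.79 to 3.05 for the 5 mural and 0.72 to 3.10 for the 5 astrocyte markers. In such bulk samples, fewer cells of a type and less RNA per cell cannot be told apart.

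A property of the table bears on 2 members. Values from which the sequencing components were regressed out have a correlation of 0 with them, and in 9791 of 9931 genes it was at most 3.94e-10. The other 140 genes exceeded 1e-05, *Smad1* (0.00646 with the first component and -0.0153 with the second), *Smad4* (0.0204 and 0.0703) and *Rest* (0.326 and -0.162) among them. The other 7 members stayed at or below 6.01e-11. A search for the fewest libraries whose change of sign or by a fixed step returns both correlations to 0 gave 1 library for *Smad4* and 6 for *Smad1*. Results for these 2 genes use the deposited values unless the changed values are named, the fold changes printed for them are also given with the changed values, and how the departures arose was not tested.

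**Figure D1:**
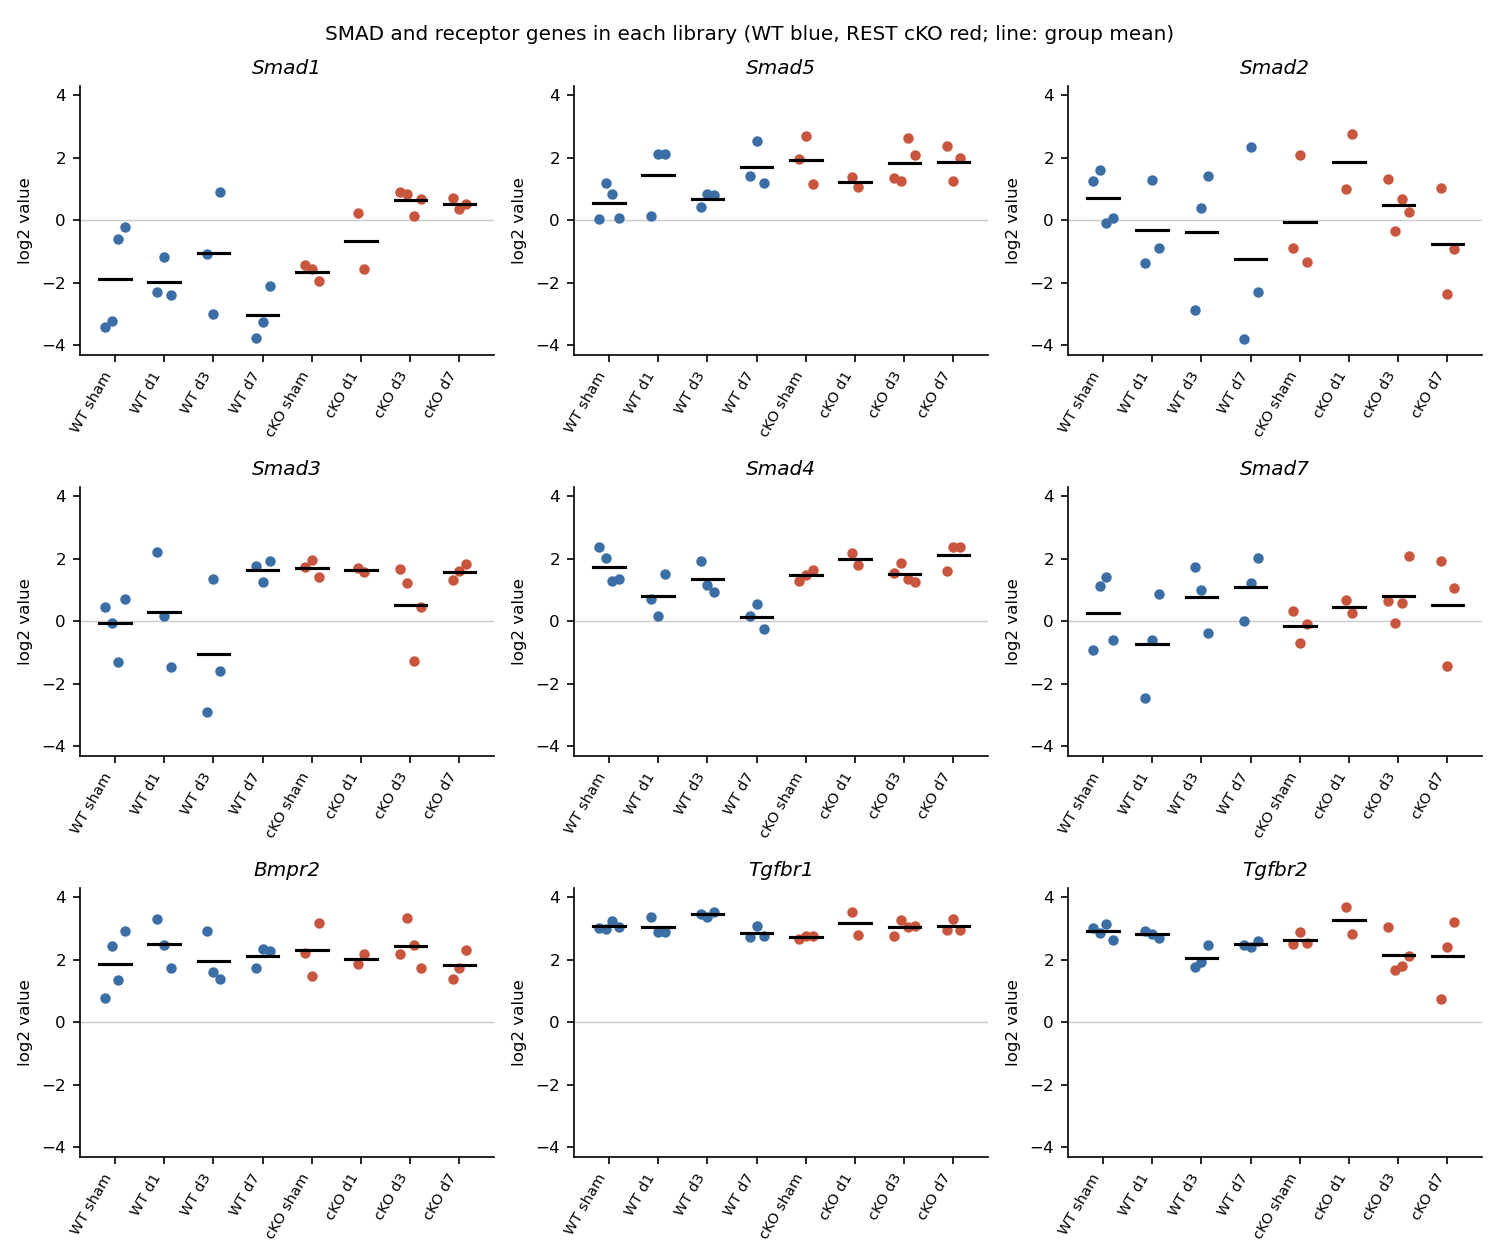
Deposited log2 value of each member in each library (circles) by group, with the group mean as a line, on 1 common axis. *Tgfbr1* stayed between 2.67 and 3.55 in all libraries, while *Smad2* ran from -3.80 to 2.78.

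The members differed widely in how steady they were. *Tgfbr1*, the type I receptor of TGF-β, had an SD of 0.27 over the 25 libraries, and 2.31% of genes varied less. *Smad2* was the most variable, with an SD of 1.70, more than 93.9% of genes. The median gene had an SD of 1.17. *Tgfbr2*, *Bmpr2*, *Smad4* and *Smad5* (0.61, 0.66, 0.71 and 0.79) lay below that median, *Smad7* (1.13) lay near it, and *Smad3* and *Smad1* (1.39 and 1.56) lay above it. When the 8 group means of each member were put in order, only 2 of the 63 neighbouring steps exceeded the larger SD of the 2 groups. These were the step of *Smad1* down to WT day 7, from WT day 1, and the step of *Smad5* from REST cKO day 1 to WT day 3. No step of *Smad1* or *Smad4* exceeded it with the changed values, the gap of *Smad1* down to WT day 7 being 1.28, from WT sham, whose SD was 1.84. The SDs over all libraries were then 1.61 for *Smad1* and 0.66 for *Smad4*.

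The BMP type II receptor *Bmpr2*, the inhibitory *Smad7* and the TGF-β-responsive *Smad2* met neither condition in any comparison of 2 groups, namely no overlap or an unadjusted p-value under 0.05. *Bmpr2* lay between 0.79 and 3.34 in all libraries, and its 8 group means spanned 0.68, from 2.50 in WT day 1 to 1.82 in REST cKO day 7. *Smad7* lay between -2.46 and 2.08, with group means from -0.73 in WT day 1 to 1.10 in WT day 7. *Smad2* was -3.80, 2.34 and -2.28 in the 3 WT libraries of day 7 and 1.03, -2.37 and -0.92 in REST cKO. For *Smad2*, the range within each of these 2 groups was thus wider than the distance between their means.

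Injury alone was measured as SCI against sham in WT neurons. At day 1, limma called 0 of the 9 members at an adjusted p-value under 0.1 (0% of all genes). None had an unadjusted p-value under 0.05 (6.43% of all genes did), and none was without overlap (7.02%). Member fold changes ran from -1.34 for *Smad7* to 0.97 for *Smad5* on the log2 scale.

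At day 3 after SCI in WT neurons, the 2 TGF-β receptors stood apart from sham in opposite directions. *Tgfbr1* was 3.48, 3.36 and 3.53 at day 3 and 3.02, 2.99, 3.23 and 3.05 in sham. All 3 injured libraries lay above all 4 sham libraries, with a log2 fold change of 0.39 (standard error, SE, 0.21; limma adjusted p = 0.733). *Tgfbr2*, the type II receptor that binds TGF-β first, was 1.76, 1.93 and 2.49 at day 3 and 3.01, 2.85, 3.16 and 2.63 in sham. Here all injured libraries lay below sham, with a log2 fold change of -0.96 (SE 0.45, unadjusted p = 0.0438, limma adjusted p = 0.708; unadjusted p = 0.0545 with a term for sex). Neither passed the threshold, and 0 of 9 members did (0.0101% of all genes). *Tgfbr2* was the only member with an unadjusted p-value under 0.05 (6.9% of all genes), and 2 of 9 members were without overlap (6.54%). With quantile normalization the fold change of *Tgfbr1* was 0.21. The microglial marker mean was 2.99 to 3.37 at day 3 and 2.99 to 3.25 in sham, and its part in these values was not tested.

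At day 7 in WT neurons, *Smad4*, *Smad3* and *Tgfbr2* did not overlap with sham. *Smad4*, the common partner of the receptor-regulated SMADs, was 0.16, 0.55 and -0.25 at day 7 and 2.37, 2.01, 1.29 and 1.34 in sham. The injured libraries all lay below sham, with a log2 fold change of -1.57 (SE 0.49, unadjusted p = 0.00341, limma adjusted p = 0.420). The correlation of *Smad4* with the components returned to 0 when WT SCI day 7 replicate 4 was set from 0.16 to 1.16. The fold change was then -1.20 (unadjusted p = 0.0226, limma adjusted p = 0.623), still without overlap.

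*Smad3*, which carries TGF-β signals, was 1.76, 1.25 and 1.94 at day 7 in WT and 0.47, -0.06, -1.30 and 0.73 in sham. It was higher in all 3 injured libraries, with a log2 fold change of 1.89 (SE 0.94, unadjusted p = 0.0546, limma adjusted p = 0.742). The unadjusted p-value was 0.0231 with a term for sex (fold change 2.33) and 0.0488 with quantile normalization. All 3 WT libraries of day 7 are labelled female, and sham holds 2 of each sex. The astrocyte marker mean was 1.28 to 2.14 at day 7 and 0.72 to 1.23 in sham, and its part in the *Smad3* difference was not tested. *Smad5* was 1.42, 2.53 and 1.20 at day 7 and 0.05, 1.21, 0.83 and 0.09 in sham. These 2 groups overlapped, and the log2 fold change was 1.22 (SE 0.59, unadjusted p = 0.0472, limma adjusted p = 0.704), or 0.74 without WT SCI day 7 replicate 7. Its unadjusted p-value was 0.0579 with a term for batch, 0.101 with a term for sex and 0.0630 with quantile normalization. *Smad2* had the widest log2 fold change of the members, -1.97, with overlap and a 95% confidence interval of -4.73 to 0.78. *Tgfbr2* was 2.48, 2.40 and 2.61, just below the lowest sham library at 2.63, with a log2 fold change of -0.47 (SE 0.41, limma adjusted p = 0.876). In all, 0 of 9 members passed (0% of all genes), 2 had an unadjusted p-value under 0.05 (6.89% of all genes) and 3 were without overlap (6.87%).

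In REST cKO neurons the members without overlap with sham were *Tgfbr1*, *Smad1* and *Smad4*. *Tgfbr1* was 2.67, 2.76 and 2.76 in REST cKO sham, the lowest group mean of this gene, and every injured REST cKO library lay above them. It was 3.54 and 2.81 at day 1, 2.77, 3.26, 3.07 and 3.08 at day 3, and 2.95, 3.30 and 2.96 at day 7. The log2 fold changes were 0.45, 0.31 and 0.33 (SE 0.22, 0.21 and 0.22; limma adjusted p = 0.924, 0.999 and 0.936). With quantile normalization they were 0.26, 0.19 and 0.22. At day 1 the fold change was 0.03 without replicate 19 and 0.88 without replicate 25, and at day 7 it was 0.14 without replicate 13. These 3 comparisons share the same sham libraries.

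*Tgfbr1* was also set beside the microglial markers. Their mean was also lowest in REST cKO sham (2.83, range 2.68 to 2.97) and highest in WT day 3 (3.21, range 2.99 to 3.37), the groups in which *Tgfbr1* was lowest and highest. The groups next in order did not match, since REST cKO day 1 had the second highest *Tgfbr1* mean (3.18) with a microglial mean of 2.93, and WT day 7 the second lowest (2.86) with 3.10. Over the 25 libraries the Pearson correlation of *Tgfbr1* with that mean was 0.498, a description over libraries that share batches and normalization, and its part in the *Tgfbr1* values was not tested. *Smad3* had a correlation of similar size and opposite sign with the same mean (-0.516), and the other members lay between -0.278 and 0.272. For *Tgfbr2* the correlation was -0.278, and its widest was with the 5 mural cell markers (-0.559). TGF-β receptor signalling is also known to maintain microglia.

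**Figure D2:**
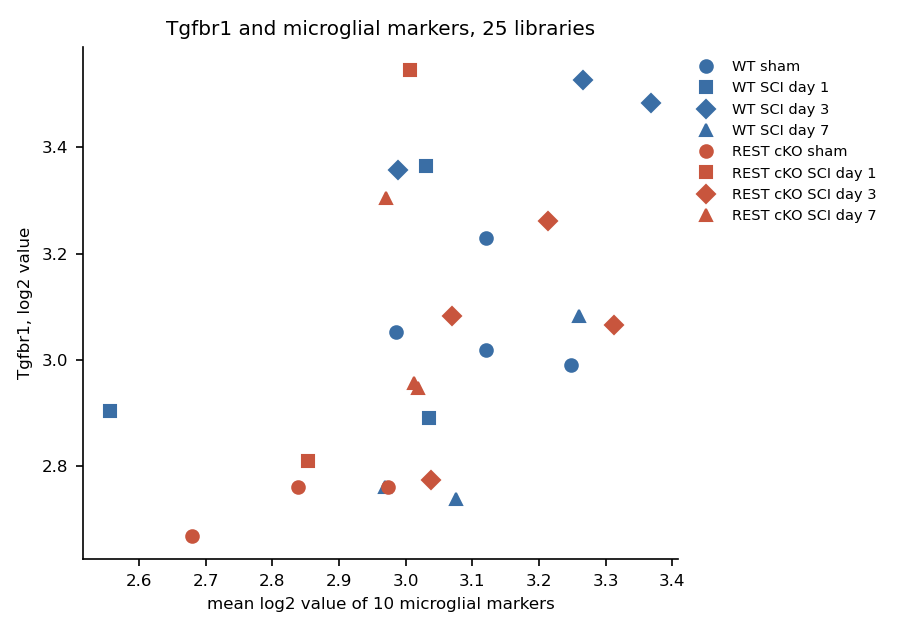
Log2 value of *Tgfbr1* (vertical) against the mean log2 value of 10 microglial markers (horizontal) in each of 25 libraries, WT in blue and REST cKO in red, with a marker shape for each day. The 3 WT day 3 libraries have *Tgfbr1* between 3.36 and 3.53, and the 3 REST cKO sham libraries lie between 2.67 and 2.76, at microglial means of 2.68 to 2.97.

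*Smad1* was -1.42, -1.56 and -1.95 in REST cKO sham, 0.91, 0.85, 0.13 and 0.70 at day 3 and 0.72, 0.36 and 0.51 at day 7. All 7 of these injured libraries lay above sham. Its log2 fold change was 2.36 at day 3 (SE 1.13, unadjusted p = 0.0463, limma adjusted p = 0.999) and 2.30 at day 7 (SE 1.17, unadjusted p = 0.0597, adjusted p = 0.886). Both use deposited values that correlate with the components. With the changed values the fold changes were 1.86 (unadjusted p = 0.177) and 0.99 (unadjusted p = 0.484), and at day 7 the groups overlapped. At day 1 *Smad1* was 0.24 and -1.54, which overlapped with sham. *Smad4* was 2.18 and 1.80 at day 1 and 1.31, 1.47 and 1.64 in sham, with a log2 fold change of 0.49 (SE 0.56, limma adjusted p = 0.973), 0.25 without replicate 19 and 0.73 without replicate 25 of day 1, and 0.48 with the changed values. With a term for batch or sex, the unadjusted p-value of *Smad1* at day 3 was 0.0777 or 0.121.

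Against REST cKO sham, the count of members that passed was 0 of 9 for day 1 (0% of all genes), day 3 (0.0201%) and day 7 (0%). Below an unadjusted p-value of 0.05 were 0 members at day 1 (5.29% of all genes), 1 at day 3 (4.65%) and 0 at day 7 (5.67%). For each of the 3 days, 2 of 9 members were without overlap, against 20.4% of all genes at day 1, where REST cKO has 2 libraries, 6.69% at day 3 and 10.7% at day 7. By the changed values 0 members lay below 0.05 at day 3, and 1 was without overlap at day 7.

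REST cKO neurons were next compared with WT neurons at matched days, which asks what the loss of REST adds to each state. In sham mice, the 2 groups differed most in *Smad3* and *Smad5*. *Smad3* was 1.74, 1.97 and 1.42 in REST cKO sham and 0.47, -0.06, -1.30 and 0.73 in WT sham. The groups did not overlap, and the log2 fold change was 2.21 (SE 1.07, unadjusted p = 0.0490, limma adjusted p = 0.719). *Smad5* was 1.96, 2.71 and 1.17 against 0.05, 1.21, 0.83 and 0.09, which overlapped, with a log2 fold change of 1.53 (SE 0.67, unadjusted p = 0.0299, limma adjusted p = 0.669). Within batch 1 the REST cKO minus WT difference was 1.53 for *Smad3* and 1.33 for *Smad5*, and within batch 2 it was 2.26 and 2.25. The unadjusted p-value of *Smad3* was 0.0629 with a term for batch and 0.128 with a term for sex (fold change 1.72), and that of *Smad5* was 0.0397 and 0.0207. *Tgfbr1* was lower in every REST cKO sham library, with a log2 fold change of -0.33 (SE 0.22, limma adjusted p = 0.826). All 3 REST cKO sham mice are labelled male, and WT sham holds 2 of each sex. The astrocyte marker mean (5 of 8 markers measured, *Gfap*, *Aqp4* and *Aldh1l1* not analysed here) was 1.76 to 2.53 in REST cKO sham and 0.72 to 1.23 in WT sham. The neuronal marker mean (1.79 to 2.58 against 0.30 to 1.58) and the excitatory marker mean (1.15 to 2.12 against 0.62 to 0.89) were also higher without overlap, and the microglial mean was lower (2.68 to 2.97 against 2.99 to 3.25). The part of these in the member differences was not tested. Here 0 of 9 members passed (0.0302% of all genes), 2 had an unadjusted p-value under 0.05 (6.91%) and 2 were without overlap (7.86%).

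At day 1 after SCI the genotypes differed in *Smad4* alone among the members without overlap (1 of 9, against 18.6% of all genes). It was 2.18 and 1.80 in REST cKO and 0.72, 0.16 and 1.52 in WT. The log2 fold change was 1.27 (SE 0.64, limma adjusted p = 0.999), 0.70 without WT SCI day 1 replicate 8 and 1.33 with the changed values. No member passed (0% of all genes) or lay below an unadjusted p-value of 0.05 (3.81%), where *Smad4* was at 0.0591, or at 0.0499 with a term for sex (fold change 1.35).

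At day 3, *Smad5* was 1.34, 1.27, 2.63 and 2.08 in REST cKO and 0.41, 0.84 and 0.83 in WT. Every REST cKO library lay above WT, with a log2 fold change of 1.05 (SE 0.62, limma adjusted p = 0.825), and the difference was 0.93, 1.11 and 1.25 within batches 1, 2 and 3. *Tgfbr1* was 2.77 to 3.26 in REST cKO, below the WT range of 3.36 to 3.53, with a log2 fold change of -0.42 (SE 0.21, limma adjusted p = 0.780). Its within-batch differences were -0.71, -0.19 and -0.44. The unadjusted p-value of *Tgfbr1* from limma was 0.0526, or 0.0470 with a term for batch (fold change -0.45). In all, 0 of 9 members passed (0% of all genes), 0 had an unadjusted p-value under 0.05 (6.37%) and 2 were without overlap (7.59%). *Smad1* was 0.13 to 0.91 in REST cKO and -2.99, -1.08 and 0.91 in WT, which overlapped, as they did with the changed values (-0.85 to 0.91 in REST cKO, -2.99 to 1.08 in WT).

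At day 7 after SCI, *Smad1* and *Smad4* lay higher in every REST cKO library than in every WT library, and the other 7 members overlapped between the genotypes. *Smad1*, the BMP-responsive SMAD, was 0.72, 0.36 and 0.51 in REST cKO and -3.76, -3.26 and -2.11 in WT. The log2 fold change was 3.67 (SE 1.09, 95% confidence interval 1.42 to 5.92, unadjusted p = 0.00249, limma adjusted p = 0.238). Within batch 1 the difference was 4.23 and within batch 2 it was 2.47, with no WT library of day 7 in batch 3. With the changed values the difference within batch 2 was -0.25, so its direction reversed, and batch 1 stayed at 4.23.

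*Smad4* was 1.63, 2.39 and 2.37 in REST cKO and 0.16, 0.55 and -0.25 in WT at day 7. The log2 fold change was 1.94 (SE 0.51, 95% confidence interval 0.88 to 2.99, unadjusted p = 0.000870, limma adjusted p = 0.184), and the within-batch differences were 1.27 and 2.64, or 0.77 and 2.64 with the changed values. This was the smallest p-value of any member in a comparison of 2 groups, at rank 47 of 9931 genes, with *Smad1* at rank 104.

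**Figure D3:**
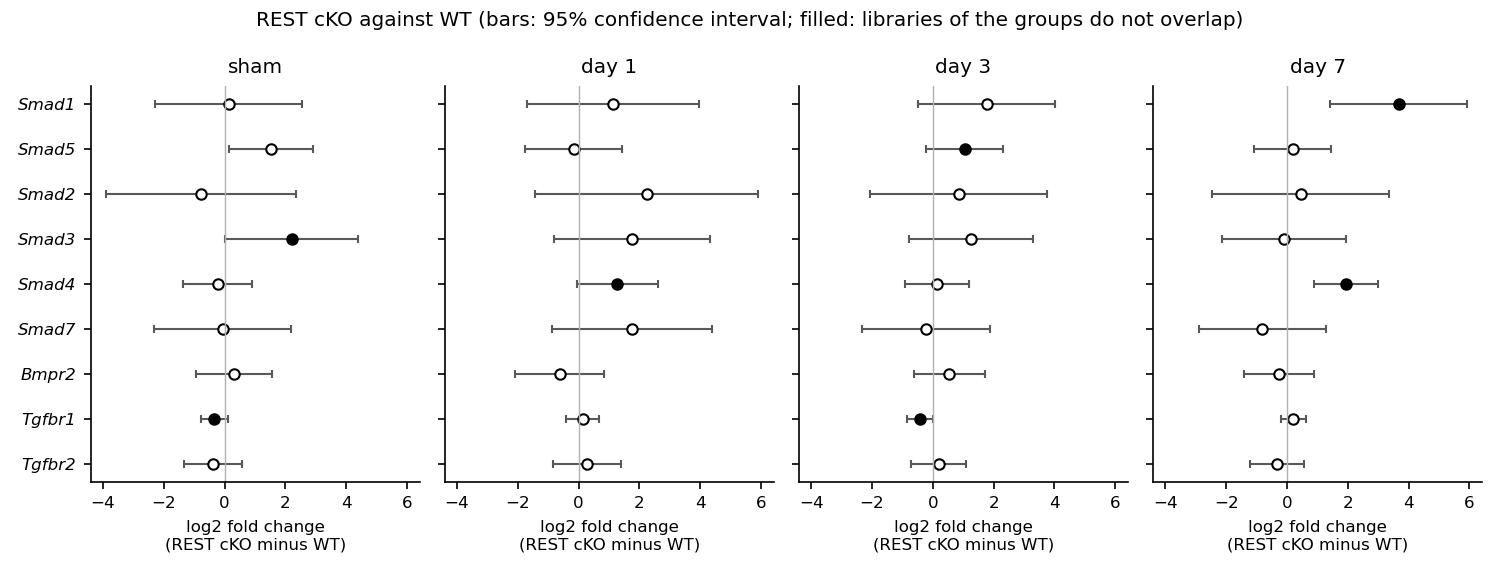
Log2 fold change of REST cKO against WT (horizontal) for each member in sham and at days 1, 3 and 7, with 95% confidence intervals from limma. Filled circles mark members whose libraries do not overlap between the genotypes. At day 7 the intervals of *Smad1* (1.42 to 5.92) and *Smad4* (0.88 to 2.99) lie above 0, and 0 members passed the adjusted threshold in any panel.

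The other 7 members had log2 fold changes from -0.81 to 0.46 at day 7. *Smad2* was at 0.46 (95% confidence interval -2.45 to 3.37), *Tgfbr1* at 0.21 (-0.21 to 0.63), *Smad5* at 0.19 (-1.08 to 1.46) and *Smad3* at -0.11 (-2.15 to 1.93). *Bmpr2*, the type II BMP receptor, was at -0.26 (-1.42 to 0.91), *Tgfbr2* at -0.33 (-1.22 to 0.56) and *Smad7* at -0.81 (-2.91 to 1.30). The interval of *Tgfbr1* was the narrowest and that of *Smad2* the widest. The median over the 9 members was 0.19, beside 0.23 over all genes. Of the 9 members 0 passed (0% of all genes), 2 had an unadjusted p-value under 0.05 (9.95%) and 2 were without overlap (12.4%). Both counts were 1, *Smad4*, with the changed values.

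At day 7 the genotypes also differed in other measures. By the labels, WT holds 3 females and REST cKO 3 males, so sex and genotype cannot be told apart in this comparison. The neuronal marker mean was 1.65 to 2.04 in REST cKO and 0.39 to 1.64 in WT. The excitatory marker mean was 1.02 to 1.67 in REST cKO and 0.02 to 0.66 in WT, without overlap. The astrocyte marker mean was 1.76 to 2.85 against 1.28 to 2.14, which overlapped. The part of these in the *Smad1* and *Smad4* differences was not tested. With a term for sex the fold changes were 4.05 for *Smad1* and 2.18 for *Smad4*. That term is estimated from the groups that hold both sexes, so it cannot separate sex from genotype at day 7.

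The *Smad1* difference at day 7 rests on the values that correlate with the components. Both correlations returned to 0, to 3.66e-11, when 6 libraries were changed. The sign was reversed in WT sham replicate 17 (-0.21 to 0.21), WT SCI day 1 replicate 8 (-1.19 to 1.19), WT SCI day 3 replicate 5 (-1.08 to 1.08), REST cKO SCI day 3 replicate 15 (0.85 to -0.85) and REST cKO SCI day 7 replicate 26 (0.51 to -0.51). REST cKO SCI day 7 replicate 13 went from 0.36 to -2.36. In this search, any set of signs with at most 1 step, the only other solution changed 20 libraries. All 3 changed WT values were higher and all 3 changed REST cKO values lower than the deposited ones.

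With the changed values, *Smad1* was 0.72, -2.36 and -0.51 in REST cKO at day 7, which overlapped with WT. The log2 fold change was 2.41 (SE 1.30, 95% confidence interval -0.28 to 5.09, unadjusted p = 0.0766, limma adjusted p = 0.557). *Smad4* stayed without overlap, with a log2 fold change of 1.62 (unadjusted p = 0.00482, limma adjusted p = 0.269). The genotype difference of *Smad1* at day 7 was thus past an unadjusted p-value of 0.05 only with the deposited values, and that of *Smad4* with both.

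**Figure D4:**
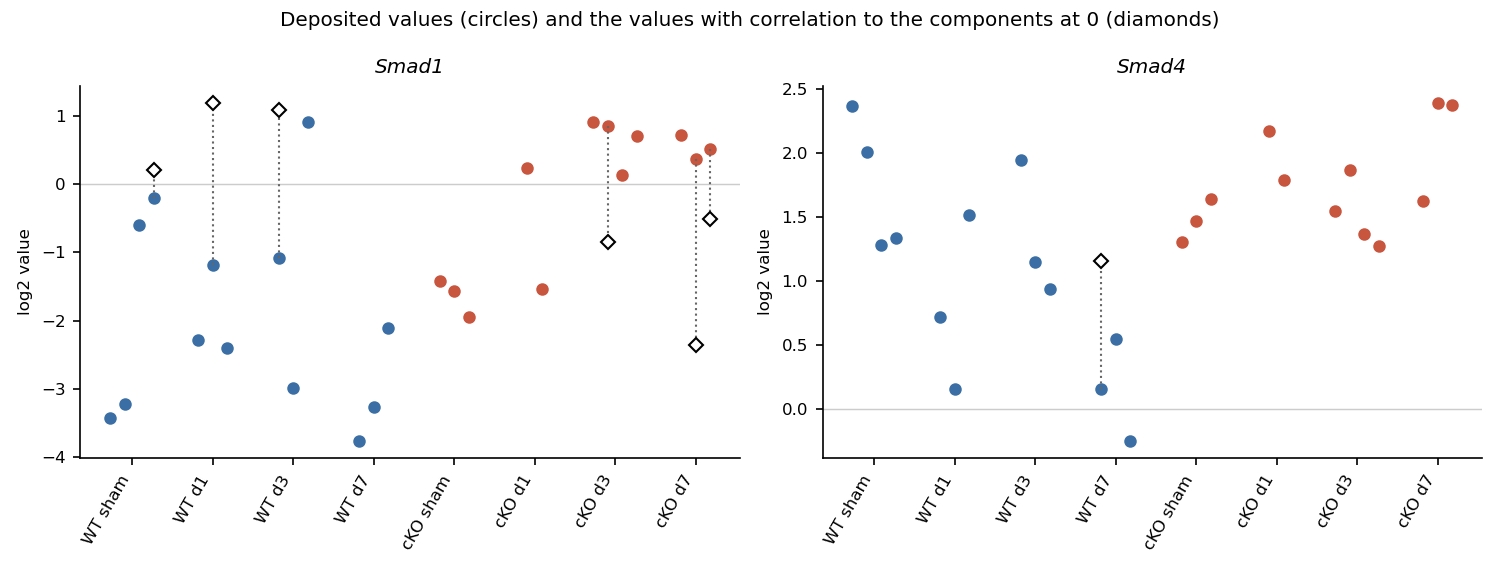
Log2 values of *Smad1* and *Smad4* in each library (vertical) by group, as deposited (circles, WT blue and REST cKO red) and, for 6 libraries of *Smad1* and 1 of *Smad4*, as changed so that the correlation with the components is 0 (open diamonds, joined by dotted lines). In REST cKO day 7 the *Smad1* values 0.36 and 0.51 become -2.36 and -0.51.

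Whether injury acted differently in the 2 genotypes was tested as an interaction. At day 7 the difference of the fold changes from sham was 2.16 for *Smad4* (unadjusted p = 0.00945, limma adjusted p = 0.651) and 3.53 for *Smad1* (unadjusted p = 0.0413, adjusted p = 0.782). With the changed values it was 1.76 for *Smad4* (unadjusted p = 0.0343) and 2.28 for *Smad1* (unadjusted p = 0.254). No member passed at day 3 (0% of all genes) or day 7 (0.0201%). An unadjusted p-value under 0.05 was found for 0 members at day 3 (5.15% of all genes) and 2 at day 7 (6.35%).

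Over the 3 injured days together, the genotype difference was 1.11 for *Smad4* (limma adjusted p = 0.507) and 2.19 for *Smad1* (adjusted p = 0.595). It was 1.01 and 1.13 with the changed values, where the unadjusted p-values were 0.00252 and 0.143 from limma. Here 0 of 9 members passed (0% of all genes) and these 2 had an unadjusted p-value under 0.05 (6.77%). The TGF-β receptors were near 0, with *Tgfbr1* at -0.03 (95% confidence interval -0.27 to 0.22) and *Tgfbr2* at 0.05 (-0.46 to 0.56).

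Other genes of the pathway were read from 5 lists of 138 names, of which 79 were measured (6 ligands, 8 other receptors, 12 extracellular inhibitors, 32 intracellular partners and 21 target genes). None passed the threshold in any comparison of 2 groups. The number with an unadjusted p-value under 0.05 in WT neurons was 8 higher and 3 lower at day 1, 7 and 1 at day 3, and 1 and 1 at day 7. These are 13.9%, 10.1% and 2.53% of the 79, beside 6.43%, 6.9% and 6.89% of all genes. In REST cKO neurons it was 0 and 0 at day 1, 0 and 1 at day 3, and 4 and 0 at day 7, which are 0%, 1.27% and 5.06% beside 5.29%, 4.65% and 5.67%. Between the genotypes it was 7 higher and 1 lower in sham, 5 and 0 at day 1, 6 and 4 at day 3, and 7 and 2 at day 7. These are 10.1%, 6.33%, 12.7% and 11.4%, beside 6.91%, 3.81%, 6.37% and 9.95% of all genes.

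No overlap combined with an unadjusted p-value under 0.05 was found in WT neurons for 8 of the 79 genes at day 1 (3.41% of all genes), 4 at day 3 (3.15%) and 0 at day 7 (3.46%). In REST cKO neurons it was found for 0 at day 1 (4.7%), 0 at day 3 (2.42%) and 1 at day 7 (3.7%). Between the genotypes, sham mice gave 5 (3.64%), day 1 gave 3 (2.78%), day 3 gave 4 (3.43%) and day 7 gave 7 (6.47%). With the changed values they were 3 at day 3 in WT, 3 at day 3 between genotypes and 6 at day 7 between genotypes, and the same elsewhere.

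Among the 8 genes at day 1 in WT neurons, the 6 with the smallest p-values are described. Among target genes, *Hes1*, a transcriptional repressor, had a log2 fold change of 2.31, *Cdkn1a*, the cell cycle inhibitor p21, 2.27, and *Pmepa1*, a feedback inhibitor of TGF-β signalling, -0.99. Among regulators, the SMAD corepressor *Skil* was at -1.55 and *Zfyve9*, which presents SMADs to the receptor, at 1.73. *Chrd*, which encodes the BMP antagonist chordin, was at 2.46. Their adjusted p-values ran from 0.569 to 0.689 in limma.

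At day 3 in WT neurons, the target gene *Tsc22d1* had a log2 fold change of 1.98 and *Cited2*, a partner of the coactivators CBP and p300, 2.06. *Chrd* was at 3.16 and the ligand *Tgfb2* at 3.26, with adjusted p-values of 0.497 to 0.603 over these 4 genes in limma. *Tgfb2*, *Chrd*, *Id4* and *Grem1* also correlated with the components. Reversing the sign of WT SCI day 3 replicate 5 (2.80 to -2.80) returned *Tgfb2* to a correlation of 0, and its fold change was then 1.74 with overlap. At day 7 no gene met both conditions in WT neurons. In REST cKO neurons only *Xiap*, an adaptor of BMP receptors, met them, at day 7, with a log2 fold change of 1.24 (limma adjusted p = 0.861).

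Between the genotypes in sham mice, the ligand *Tgfb3* had a log2 fold change of 3.64, *Hes1* of 2.05, *Cdkn1a* of 2.21, *Nedd4l*, a ubiquitin ligase for SMAD2 and SMAD3, of 1.94 and *Dcn*, the TGF-β-binding proteoglycan decorin, of 2.16, all higher in REST cKO (SE 0.77 to 1.28, limma adjusted p from 0.562 to 0.707). At day 1 the BMP type I receptor *Acvr1* was at 3.45, the collagen gene *Col1a1* at 4.07 and *Tgfb3* at 3.27 (SE 1.23 to 1.49, limma adjusted p = 0.999 for each), with 2 REST cKO libraries and 18.6% of all genes without overlap. At day 3 *Tgfb2* was at -3.26 (-1.67 with the changed value, with overlap), the SMAD phosphatase *Ppm1a* at -1.25, the ligand *Bmp4* at 2.86 and *Fkbp1a*, which binds type I receptors, at 1.12 (SE 0.48 to 1.13, limma adjusted p from 0.650 to 0.780).

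In the genotype comparison at day 7, 7 other pathway genes met both conditions, and the 6 with the smallest p-values are described. *Smurf1*, a ubiquitin ligase that targets SMAD1 and SMAD5, was -1.94 on average in WT and 1.77 in REST cKO, with a log2 fold change of 3.83 (SE 1.17, limma adjusted p = 0.238). The target genes *Ctgf* and *Id4* were at 3.17 and 2.49. Among the BMP antagonists, *Chrd* was at 3.04 and *Sostdc1* at -2.52. *Ski*, a SMAD corepressor, was at -1.34. With the changed values of *Chrd* and *Id4* their fold changes were 3.03 and 2.62. The seventh gene, the BMP antagonist *Grem1*, falls outside the limit of 6 names and was chosen after its values were seen. Its log2 fold change was 2.97 (SE 1.29, limma adjusted p = 0.439), and 2.43 with overlap once the signs of WT SCI day 7 replicate 4 and REST cKO SCI day 7 replicate 26 were reversed. The count was then 6. Of the 12 measured extracellular inhibitors and binding proteins, 6 had fold changes above 0 and 6 below. The adjusted p-values of the 6 genes ran from 0.238 to 0.420 in limma. Of the 79 measured pathway genes 9 had an unadjusted p-value under 0.05 (11.4%, beside 9.95% of all genes) and 14 were without overlap (17.7%, beside 12.4%). The median log2 fold change was 0.11, beside 0.23 over all genes.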

How the data were processed

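RNA of sorted neurons was read with a 3′ mRNA-seq kit (QuantSeq FWD). The authors deposited log2 normalized counts, made by aligning to mm10 (GRCm38) with STAR, estimating abundance with Salmon, summing per gene with tximport, scaling with DESeq2's geometric means, removing batch effects with RUV and regressing out 2 components of sequencing metrics. Tool versions are not given in the sources used here. These steps take variance out of the values and leave no read totals, so errors come only from the spread between libraries. The same table holds the authors' own fold changes and p-values, which were not used. Of 9955 rows, 24 (0.241%) had no symbol and were left out. No library was left out, and no value column belonged to another sample.

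All 9931 genes were fitted with limma 3.58.1 (R 4.3.3): a mean for each of 8 groups plus the 2 components of the labels over 25 libraries, empirical Bayes with a mean-variance trend, two-sided tests, Benjamini-Hochberg adjustment and a threshold of 0.1. The fit was tested on simulated data. Overlap means that the ranges of 2 groups' libraries meet. Libraries are separate mice by the study's legend. Groups follow the sample labels. Statistics are printed for a member without overlap or with an unadjusted p-value under 0.05, and for every member between genotypes at day 7. Pathway genes are named where both hold, at most 6 per comparison, by p-value. Members, lists and comparisons were chosen with earlier results of these data known.

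Alternatives dropped the components, fitted the compared groups alone, added batch or sex as a term, weighted libraries, kept genes with a mean of 0 or more, dropped the trend, applied quantile normalization, lowered the threshold to 0.05, used changed values or left out each library. For changed values, a change of sign, a whole step up to 3 or both were tried in up to 4 libraries. For *Smad1*, which gave no solution, any set of signs with 1 step up to 4 was tried after seeing the data, and the search over pathway genes and the within-batch differences, group orders and pathway counts with changed values were also added then. Python 3.11.15, numpy 2.4.6 and scipy 1.17.1 were used. Sequences and promoter windows are RefSeq's on GRCm38.p6, and gene positions are GENCODE's on GRCm38.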

Additional observations from a re-analysis of the deposited data

How the results depend on the processing

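The count of members past the adjusted threshold was 0 in every comparison and in all 236 alternatives, where limma was run each time. Of 27 member fold changes, 22 kept their direction in all their alternatives. Outside the genotype comparison of day 7, each was printed for no overlap or an unadjusted p-value under 0.05 in these same libraries. That choice makes a reversal unlikely. The 5 with a reversal were printed at day 7 without meeting either condition. The 13 reversals among 412 alternatives were all between genotypes at day 7, in members whose confidence interval includes 0. *Smad2* was at -0.18 with a term for sex and at -0.0215 with quantile normalization, and between -0.85 and 2.56 when single libraries were left out. *Smad7* was at 0.70 with a term for sex and between -1.41 and 0.31 without single libraries. *Smad5* ranged from -0.0515 to 0.65, *Smad3* from -0.44 to 0.28 and *Tgfbr2* from -0.88 to 0.32 without single libraries. None of the 444 alternatives of the 29 pathway fold changes was reversed. These genes were named for no overlap and an unadjusted p-value under 0.05 in the same libraries, so few reversals could occur. At day 7, *Smad1* ran from 2.41 to 4.21 (adjusted p from 0.170 to 0.557 in limma) and *Smad4* from 1.47 to 2.19 (0.125 to 0.531). The lowest *Smad1* value came from the changed values and the lowest *Smad4* value from quantile normalization. The labels name no pairs of libraries across groups, so no paired analysis was made. Batch entered as a term only in an alternative and not in the main fit. With 2 to 4 libraries a group, standard errors of members ran from 0.19 to 1.78 between groups. The depth of each single library is unknown, so the counting error of the low values of *Smad1* and *Smad2* was not given.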

Other observations

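The members did not share a common pattern over the 25 libraries. Pearson's correlation over their 36 pairs had a median of -0.00475 and ran from -0.412 (*Smad5* with *Tgfbr1*) to 0.336 (*Smad5* with *Smad7*), with 18 pairs above 0. Libraries share batches and normalization, so these are descriptions.

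The genes most alike to each member by Pearson's correlation over the 25 libraries were outside the pathway. The 9 members and 79 measured pathway genes are a small part of the 9931 genes, so this carries little weight. How high the top correlations reach without a shared pattern was not tested. *Smad1* was nearest to *Sox5* (0.685), *Tlnrd1* (0.677) and *Egflam* (0.663). *Smad4* was nearest to *Bclaf1* (0.77), *Tti2* (0.734) and *Mindy1* (0.731). For *Smad5* the nearest was *Add3* (0.847), for *Tgfbr2* *Anapc7* (0.859), for *Tgfbr1* *Sparc* (0.787), for *Bmpr2* *Ywhah* (0.791), for *Smad2* *Tnrc18* (0.789), for *Smad3* *Golga2* (0.772) and for *Smad7* *Acsl5* (0.755). The correlations of *Smad1* and *Smad4* use the deposited values.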
